A study of Mus musculus with 66 samples.

Results

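The proteasome is the large protease of the cytosol and nucleus that degrades proteins tagged with ubiquitin. The data give the RNA of its genes through a time course after activation of Myc in mouse fibroblasts. Genes were taken by symbol, as Psma, Psmb, Psmc, Psmd, Psme, Psmf or Psmg followed by a digit. The rule found 45 of the 11513 genes of each table. One of them, Psmc3ip, encodes a meiotic recombination cofactor and not a proteasome protein, so 44 proteasome genes remained. They are 15 genes of the 20S core (Psma and Psmb), 20 of the Psmc and Psmd families of the 19S regulatory particle, 4 activators (Psme), 4 core assembly chaperones (Psmg) and the inhibitor Psmf1. The symbols of the immune subunits Psmb8 and Psmb9, of the thymus subunit Psmb11 and of the testis subunit Psma8 were not among those matched, and these genes were not analysed here.

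In the 20S core, rings of alpha subunits gate the entrance and rings of beta subunits hold the active sites. The 19S particle caps the core: its base holds the ATPases that unfold substrates, and its lid holds the deubiquitinase that removes the ubiquitin chain. Dedicated chaperones assist assembly and leave or are degraded when the particle is complete, and alternative activators such as PA28 can open the core without ubiquitin.

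Cells were 3T9-MycER fibroblasts, a line from mouse embryos (E13.5) with floxed c-myc alleles that had been infected with a retrovirus carrying MycER, a Myc protein that 4-hydroxytamoxifen (OHT) activates. All groups carry these alleles and the construct. OHT was given at 400 nM. The groups are the times after it, in minutes 10, 20 and 30 and in hours 1, 1.5, 2, 4, 8, 12 and 16, and 0 min as their common baseline. At all 11 times there were 3 libraries of newly labelled RNA, from a pulse of 300 µM 4-thiouridine (4sU) that lasted 10 min, and 3 of total RNA, which makes 66. Labelled RNA is mostly newly made, and intron values in it come mostly from transcripts not yet spliced. No cells were followed without OHT, so time in culture, OHT itself and MycER activity cannot be told apart, and all times share the same 0 min libraries. Whether replicates came from separate cultures is not given in the sources used here, so p-values measure the spread between libraries, which may be technical. In such bulk samples, fewer cells of a type and less RNA per cell cannot be told apart, and with no spike-in used here a change is measured against that of most genes.

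Sums of the deposited values per library, in units of 1000000, ran between 46.5 and 52.7 in total exons, between 10.6 and 13.0 in total introns, between 11.6 and 14.1 in labelled exons and between 31.3 and 39.3 in labelled introns. These values had been rescaled, so the number of reads behind them is unknown. Of 8 fibroblast markers, 7 were in the tables; their summed level in total RNA was 2897 to 2994 RPKM at 16 h, against 4772 to 5173 RPKM at 0 min, and 6 of the 7 were lower at 16 h in both kinds of exon RNA. Vim had 2220.0 RPKM and S100a4 2270.0 RPKM in total exons at 0 min. None of 4 epithelial markers was in the tables. The 3 immune markers in the tables (Ptprc, Cd68 and Csf1r, of 4) summed to 4.29 to 4.54 RPKM at 16 h, against 2.56 to 2.81 RPKM at 0 min. The endothelial marker Pecam1 (1 of 3) was at 0.0999 to 0.147 RPKM at 16 h, against 0.0284 to 0.0563 RPKM at 0 min. The part of these markers in the results below was not tested.

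Genes whose products share the complex differed widely in RNA level before OHT. On the scale of RPKM (a level per length of transcript) in total RNA, the 31 structural subunits of the 26S proteasome spanned 16.4 RPKM (Psmd11) to 259 RPKM (Psma7) at 0 min, with a median of 108 RPKM. The most abundant were alpha and beta ring genes: Psma7 had 259 ± 14.1 RPKM, Psmb4 245 ± 8.34 RPKM, Psma2 245 ± 5.14 RPKM and Psma4 225 ± 11.1 RPKM (SD, n = 3 each). Psmb4 and Psma2 did not differ beyond their spread, Psma7 lay above both by about its own SD, and Psma4 lay below both by more than the SD of each. Within the constitutive core Psmb2, with 42.2 ± 2.59 RPKM, was the lowest. The 7 assembly factors had a median of 18.4 RPKM, the 4 activators 41.3 RPKM, the immune subunit Psmb10 19.5 ± 1.18 RPKM and the inhibitor Psmf1 5.41 ± 0.0296 RPKM.

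Most of the genes had less labelled RNA for their total level than the median gene. At 0 min the log2 ratio of labelled to total exon RPKM had a median of -2.12 over the 44 genes, against -1.22 over the 11463 genes tested in both kinds of RNA. The ratio lay below the median of all genes for 41 of the 44, including 15 of 15 core genes, 18 of 20 Psmc and Psmd genes and 4 of 4 activators. The exceptions were the lid genes Psmd11, at -0.41 ± 0.26, and Psmd7, at -1.19 ± 0.07, and the inhibitor Psmf1, at -1.18 ± 0.03 (SD over 3 pairs of libraries). Labelled and total tables were scaled separately, so the ratio ranks genes and is not a fraction of new RNA.

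**Figure D1:**
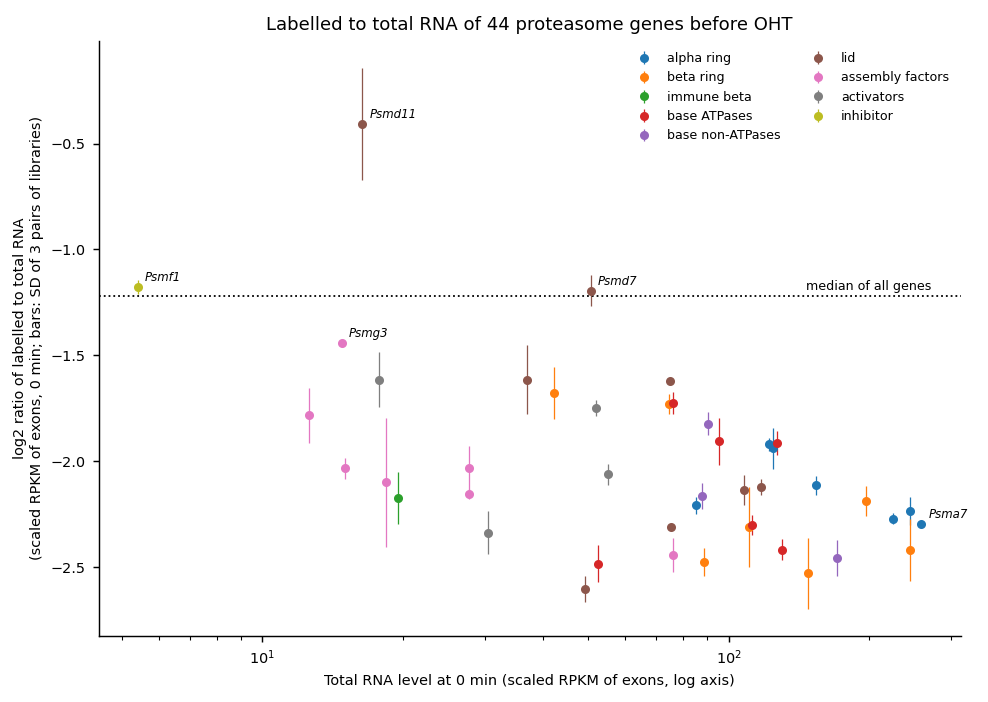
Log2 ratio of labelled to total exon RPKM (vertical axis, bars show the SD of 3 pairs of libraries) against the total RNA level in scaled RPKM (horizontal log axis) for 44 proteasome genes at 0 min, coloured by class. The dotted line is the median of all genes, -1.22, and 41 of the 44 points lie under it.

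The main question of the time course is which genes respond to active Myc, how early and in which kind of RNA. A gene was called where its limma adjusted p was under 0.05 over all genes of that table and time, with no adjustment over the 10 times. In labelled exons the calls among the 44 genes began at 1 h: 0 higher and 0 lower (0% and 0% of all genes) at 10 min, 0 higher and 0 lower (3.29% and 0.731% of all genes) at 20 min and 0 higher and 0 lower (7.87% and 3.7% of all genes) at 30 min. At 1 h they were 4 higher and 0 lower (13.1% and 10.2% of all genes). At 1.5 h they were 5 higher and 4 lower (14.3% and 11.7% of all genes), and at 2 h 6 higher and 1 lower (15% and 12.3% of all genes). At 4 h they were 9 higher and 4 lower (19.1% and 19.1% of all genes), at 8 h 14 higher and 1 lower (22.5% and 21.8% of all genes). At 12 h they were 15 higher and 3 lower (24.6% and 24.8% of all genes), and at 16 h 16 higher and 1 lower (22.1% and 22% of all genes). The 16 genes higher at 16 h are 36.4% of the 44 and the 1 lower gene is 2.27%, so more of them were higher and fewer lower than among all genes, while at 1 h both shares lay under those of all genes. The early counts rested on few genes, and without 1 library each the 4 genes called at 1 h became 0 to 3: 0 without replicate 2 of 0 min, 1 without replicate 3 of 0 min, replicate 1 of 1 h or replicate 2 of 1 h, and 3 without replicate 1 of 0 min or replicate 3 of 1 h. Scaling by library sums gave 2 higher and 1 lower at 1 h and 9 higher and 6 lower at 4 h, and no further scaling gave 6 higher and 7 lower at 4 h.

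Total exons had calls in both directions from 4 h on. They held 0 higher and 0 lower (0% and 0% of all genes) at 10 min, 0 higher and 0 lower (0.0435% and 0.00871% of all genes) at 20 min and 0 higher and 0 lower (0.331% and 0.0348% of all genes) at 30 min. At 1 h they held 1 higher and 0 lower (5.51% and 3.21% of all genes), the 1 gene being Psme2. At 1.5 h they held 1 higher and 0 lower (9.68% and 7.17% of all genes) and at 2 h 5 higher and 0 lower (11.9% and 10% of all genes). At 4 h they held 6 higher and 6 lower (19.9% and 19% of all genes), with 6 higher and 10 lower when scaled by library sums and 6 and 8 with no further scaling. The call of Psme2 at 1 h was lost in most settings without 1 library or with other scaling, as given with that gene, so no order of higher and lower calls is read from it. At 8 h they held 11 higher and 5 lower (25.6% and 25.4% of all genes). At 12 h they held 11 higher and 10 lower (28.2% and 28.9% of all genes) and at 16 h 14 higher and 8 lower (27.6% and 28.3% of all genes). The counts at 16 h are 31.8% of the 44 genes higher, near the share of all genes, and 18.2% lower. The median log2 change of the 44 at 16 h was 0.11 in labelled and 0.08 in total exons, against 0.01 and 0.00 over all genes. At no time were 10 of the 44 (22.7%) called in either kind of exon RNA, against 17.5% of the 11463 genes tested in both: Psma1, Psma4, Psma6, Psmb5, Psmc4, Psmc6, Psmd1, Psmd2, Psmd8 and Psmd14.

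**Figure D2:**
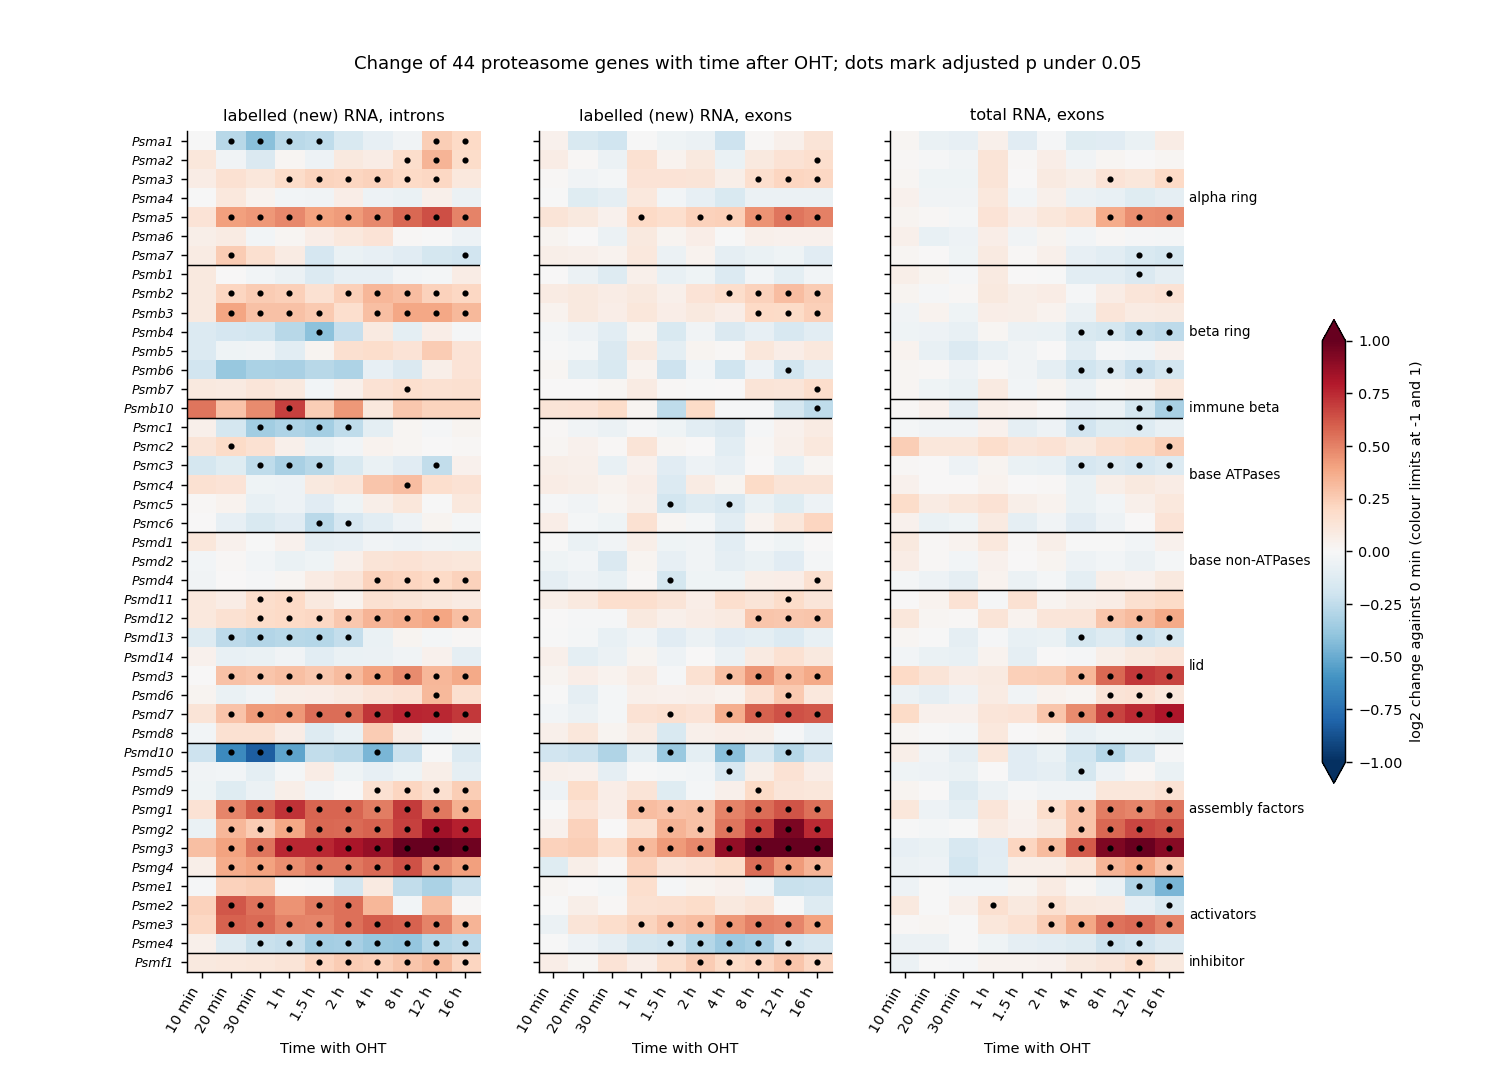
Log2 change against 0 min (colour) of 44 proteasome genes, in rows by class, at 10 times with OHT, in labelled introns, labelled exons and total exons. Dots mark an adjusted p under 0.05; the rows of Psmg1, Psmg2, Psmg3, Psmd7, Psma5 and Psme3 are red with dots from early times in introns and from later times in exons, while most core and base rows stay pale.

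**Figure D3:**
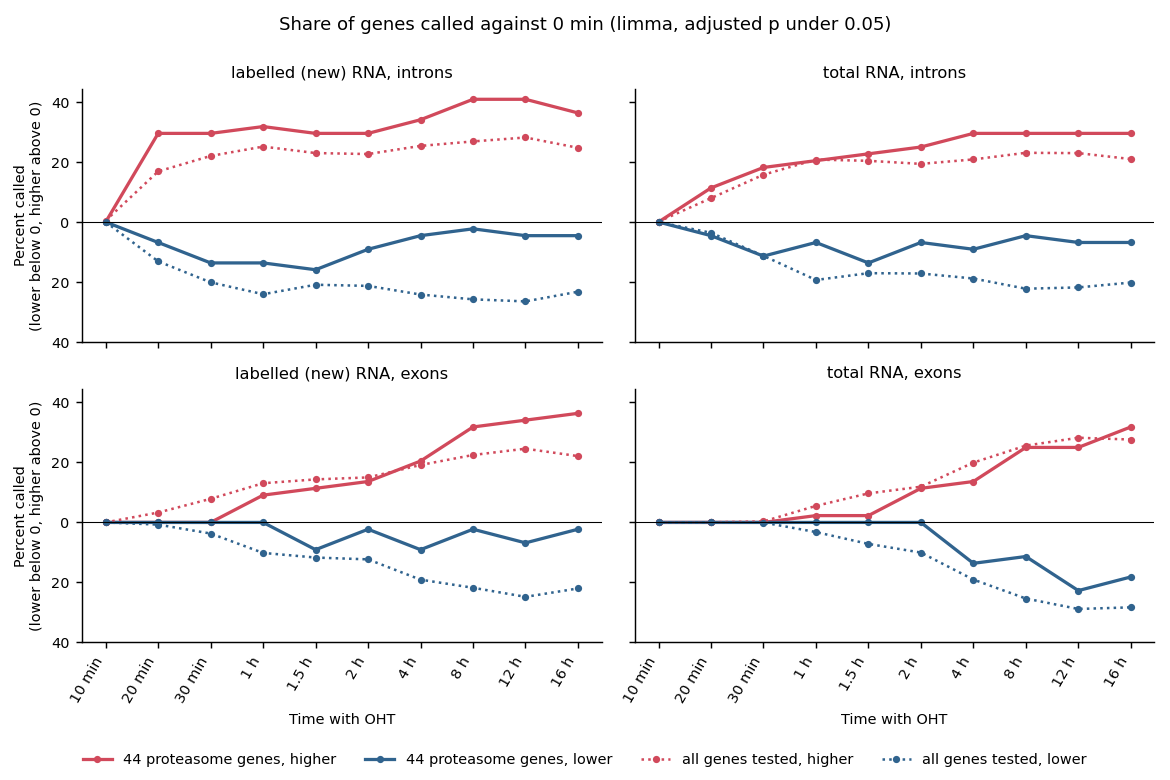
Percent of the 44 proteasome genes (solid lines) and of all genes tested (dotted lines) called higher (above 0) and lower (below 0) against 0 min, by time with OHT, in the 4 tables. In labelled exons at 16 h the solid lines reach 36.4% higher and 2.27% lower, where all genes reach 22.1% and 22%.

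The largest rise was that of Psmg3, an assembly chaperone of the core. Psmg1 and Psmg2 form one pair of chaperones and Psmg3 and Psmg4 another, and both pairs help to build the alpha ring; all 4 genes rose in both kinds of exon RNA at 16 h. Psmg3 (chromosome 5, 140299548 to 140302797 in the mm9 genome build) had scaled values of 468, 465 and 473 in labelled exons at 16 h, against 226, 203 and 223 at 0 min. Every 16 h library was above every 0 min library, and the log2 change was 1.11 ± 0.11 (SE, limma adjusted p = 5.19e-10). In total exons it had 1470.3, 1428 and 1440.1 at 16 h, against 793, 728 and 786 at 0 min, a log2 change of 0.91 ± 0.07 (limma adjusted p = 1.40e-11). This was the largest rise among the 44 genes in each kind of exon RNA. In labelled exons Psmg3 was first called at 1 h, with 299, 269 and 251, and in total exons at 1.5 h; at 1 h its total exon values, 692, 701 and 739.8, overlapped those of 0 min.

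Psmg2 and Psmg1 (chromosome 16, 96201540 to 96212567) rose too. In total exons the change of Psmg2 lay under that of the lid gene Psmd7 and close to that of Psmd3, and differences between genes were not tested. Labelled exons of Psmg2 had 567, 587 and 610.2 at 16 h, against 295, 372 and 391 at 0 min (log2 change 0.75 ± 0.10). Its total exons had 3225, 3145 and 2845 at 16 h, against 2116, 1767 and 2045 at 0 min (0.64 ± 0.08). Labelled exons of Psmg1 had 426, 417 and 439.5 at 16 h, against 308, 279.5 and 287 at 0 min (0.55 ± 0.10). Its total exons had 2449.8, 2459 and 2517 at 16 h, against 1769.6, 1658 and 1659 at 0 min (0.55 ± 0.06). In both genes and both kinds of RNA the groups did not overlap, and the largest limma adjusted p of the 4 comparisons was 1.34e-05. The rise of Psmg4 was smaller, 0.34 ± 0.12 in labelled exons (limma adjusted p = 0.0191) and 0.30 ± 0.09 in total exons (limma adjusted p = 0.00411), and the call in labelled exons was lost in 4 of 16 alternative settings.

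The assembly chaperones of the 19S base are Psmd5, Psmd9 and Psmd10. Psmd10 (gankyrin; chromosome X, 137482968 to 137491267) fell in labelled introns as early as 20 min. At 30 min its introns had 85.6, 150.4 and 113, against 175, 240.3 and 195 at 0 min, a log2 change of -0.82 ± 0.17 (limma adjusted p = 0.000185). Its labelled exons were lower at 4 h, with 214, 168 and 185 at 4 h, against 269.6, 245 and 239 at 0 min (-0.42 ± 0.12, limma adjusted p = 0.00468). At 16 h its changes were -0.16 ± 0.12 in labelled and -0.02 ± 0.09 in total exons, neither of them called. Psmd5 was lower at 4 h in both kinds of exon RNA (-0.16 ± 0.06 and -0.17 ± 0.06) and at 16 h its labelled exons, at 1423, 1349 and 1514, overlapped 1410.3, 1299.8 and 1391 at 0 min (0.06 ± 0.06). Psmd9 was called higher in all 4 tables at some time: in labelled introns from 4 h (0.15 ± 0.06), in labelled exons at 8 h (0.19 ± 0.08), in total introns from 12 h (0.26 ± 0.10) and in total exons at 16 h (0.14 ± 0.05, lost in 5 of 16 alternatives).

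**Figure D4:**
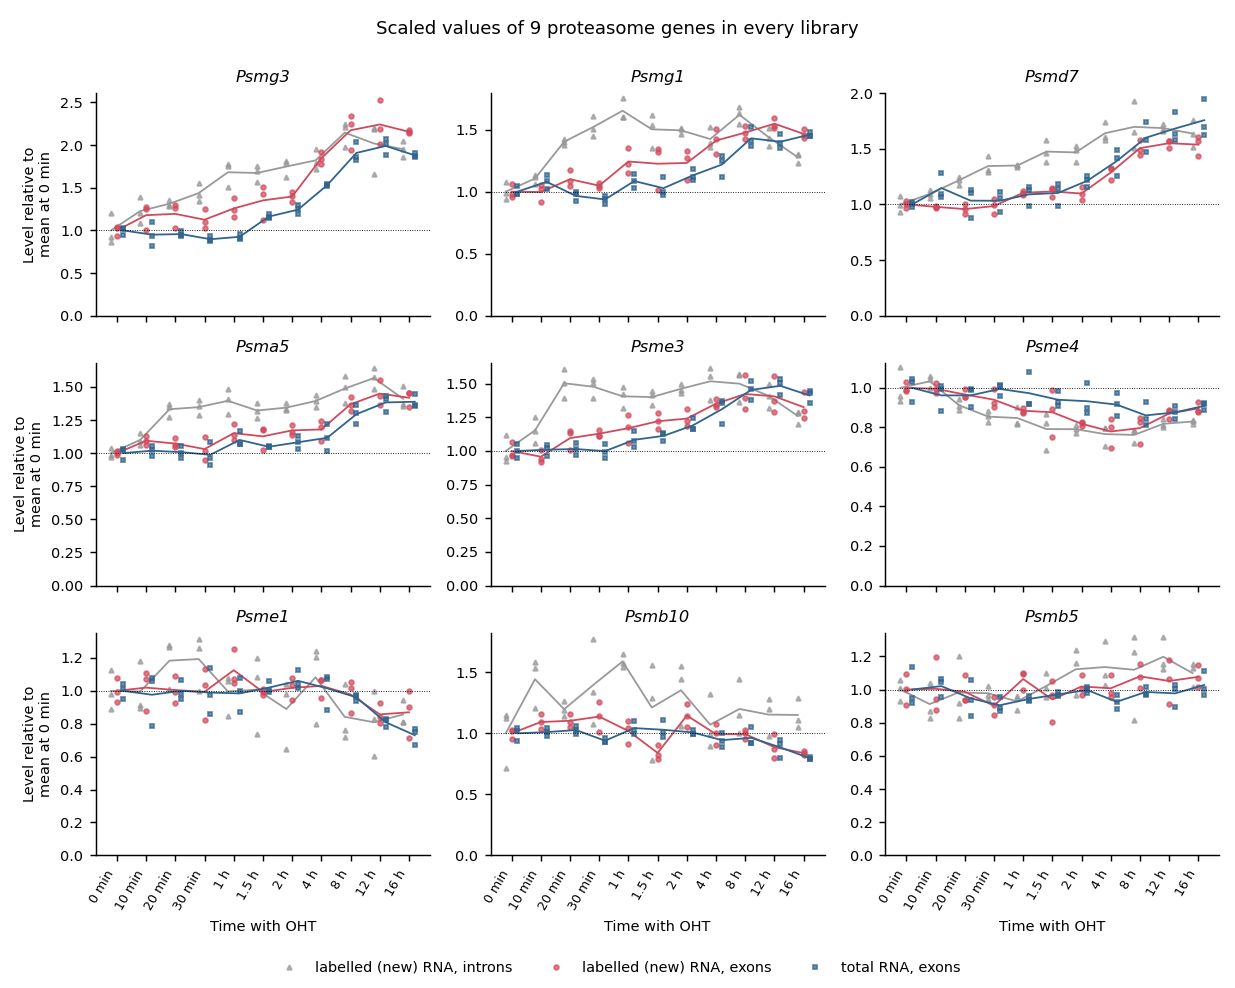
Scaled values of 9 proteasome genes in every library, relative to the mean of 0 min, by time with OHT, with lines through the means of 3 libraries: labelled introns (grey), labelled exons (red) and total exons (blue). For Psmg3, Psmg1, Psmd7, Psma5 and Psme3 the grey line leaves 1 first, and for Psmg3 and Psmg1 the blue line leaves it last, while the red and blue lines of Psmd7 run close together; Psme4 lies under 1 from the early times, Psme1 falls late in total RNA, and Psmb5 stays near 1.

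In the lid of the 19S particle, 3 of 8 genes were higher and 0 lower in labelled exons at 16 h, and 4 were higher and 1 lower in total exons. Over all genes the shares were 22.1% and 22% in labelled and 27.6% and 28.3% in total exons. Psmd7 (Rpn8), whose product pairs with the deubiquitinase Psmd14, lies on chromosome 8, 110104281 to 110112382 and had the largest rise of the lid in labelled exons. Its labelled exons had 3796, 3474 and 3886 at 16 h, against 2485, 2341 and 2428 at 0 min, with a log2 change of 0.62 ± 0.06 (limma adjusted p = 8.16e-11). Its total exons had 11636, 12122 and 13931 at 16 h, against 6989, 7309.6 and 7145 at 0 min (0.81 ± 0.10, limma adjusted p = 3.37e-08), so Psmd7 RNA rose 1.75-fold with no overlap between the groups. Psmd3 (Rpn3) had 13784, 13454 and 15491 in total exons at 16 h, against 8175, 9505 and 9099 at 0 min (0.67 ± 0.10), and its labelled exons changed by 0.38 ± 0.07. Psmd12 (Rpn5) rose by 0.28 ± 0.07 in labelled and 0.38 ± 0.07 in total exons. Psmd13 (Rpn9) went the other way in total exons, with 7823, 7475 and 7811 at 16 h, against 8794, 8356 and 8888 at 0 min (-0.17 ± 0.06, limma adjusted p = 0.0107). Its labelled exons, at 1282, 1232 and 1326 at 16 h and 1356, 1303 and 1381 at 0 min, overlapped. Its total introns were called higher at 16 h, as given below. Exons of Psmd13 share 152 bases with Sirt3 on the opposite strand, and whether counting used strand is not given in the sources used here. Psmd14 (Rpn11), the deubiquitinase itself, was not called, with 0.10 ± 0.08 in labelled and 0.12 ± 0.06 in total exons. Psmd6 was higher in total exons by 0.10 ± 0.04, a call lost in 8 of 16 alternatives, and Psmd8 and Psmd11 were not called at 16 h.

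Of the 6 ATPase genes of the base, 0 were called in labelled exons at 16 h (22.1% and 22% of all genes were higher and lower), with a class median of 0.09. In total exons 1 was higher and 1 lower (27.6% and 28.3% of all genes). Total exons of Psmc2 (Rpt1) rose by 0.25 ± 0.09 (limma adjusted p = 0.0156), a call that ended without replicate 3 of 16 h (adjusted p = 0.103). Psmc3 (Rpt5) had 12007, 11558 and 12335 in total exons at 16 h, against 13359.5, 13165 and 12962 at 0 min, all lower (-0.14 ± 0.04, limma adjusted p = 0.00827, 0.0515 without replicate 2 of 16 h). Its labelled exons, at 1953, 1883 and 1956 at 16 h and 1904, 1868 and 1949.9 at 0 min, overlapped (0.02 ± 0.07), and 215 of its exon bases lie opposite Slc39a13. Psmc6 (Rpt4) had labelled exon values of 2886, 2734 and 3188 at 16 h, all above 2549, 2601 and 2439 at 0 min, but with a log2 change of 0.21 ± 0.10 it missed the threshold (limma adjusted p = 0.0728). The scaffold genes Psmd1 and Psmd2 of the base were called at no time in exons. Psmd1 had 4171, 3723 and 4069.9 in labelled exons at 16 h, against 4036, 4029 and 3863 at 0 min (0.00 ± 0.08), the smallest change of its class; part of its exons is shared with Armc9 on the same strand. Psmd4 (Rpn10), a ubiquitin receptor, had 2170.0, 1952 and 2140.3 at 16 h, against 1872, 1810.5 and 1912 at 0 min (0.16 ± 0.06, limma adjusted p = 0.0364, lost in 6 of 16 alternatives).

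In the core, the alpha ring gene Psma5 (chromosome 3, 108059844 to 108082892) stood apart from its neighbours. Its labelled exons had 3012, 2799 and 3014 at 16 h, against 2072, 2042 and 2108 at 0 min (log2 change 0.50 ± 0.07, limma adjusted p = 1.04e-07). Its total exons had 15793, 15769 and 16769 at 16 h, against 11859, 11003 and 11957 at 0 min (0.47 ± 0.06, limma adjusted p = 2.75e-07). All 16 h libraries lay above all 0 min libraries in both kinds of RNA, a rise of about 1.4-fold. The next largest alpha ring change was that of Psma3, by 0.21 ± 0.07 in labelled (limma adjusted p = 0.0808 without replicate 3 of 16 h) and 0.20 ± 0.06 in total exons. Psma2 was higher in labelled exons (0.17 ± 0.07, lost in 6 of 16 alternatives) and not called in total exons, and Psma7 was lower in total exons (-0.17 ± 0.06, lost in 3 of 16). Psma6 was the least changed, with 1621, 1463 and 1708 in labelled exons at 16 h, against 1523, 1509 and 1609.7 at 0 min (0.04 ± 0.08). Psma1 and Psma4 were not called. Psma5 has 1 pseudogene named after it in RefSeq and shares 60 exon bases with 1700010K24Rik on the opposite strand, so a part of its reads may be uncertain.

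Of the constitutive beta ring, 3 of 7 genes were higher and 0 lower in labelled exons at 16 h, and 1 was higher and 2 lower in total exons. Over all genes 22.1% and 22% were higher and lower in labelled and 27.6% and 28.3% in total exons, so the 2 lower genes are near that share. The catalytic subunits are Psmb5 (chymotrypsin-like), Psmb6 (caspase-like) and Psmb7 (trypsin-like), and their log2 changes at 16 h lay between -0.18 (Psmb6, total exons) and 0.18 (Psmb7, labelled exons). Psmb5 had 989.9, 937 and 1061 in labelled exons at 16 h, against 927, 839 and 1009.6 at 0 min (0.11 ± 0.10). In total exons it had 5732, 5961 and 6606 at 16 h, against 6739.6, 5439.7 and 5629 at 0 min (0.04 ± 0.07), with overlap in both. Psmb6 overlapped in labelled exons (1237, 1145 and 1197 at 16 h, 1236, 1176 and 1409 at 0 min) and fell in total exons, with 8481, 8395 and 8184 at 16 h, against 9935, 9258 and 9226 at 0 min (-0.18 ± 0.05, limma adjusted p = 0.0017). Psmb7 was higher in labelled exons, 4138, 3709 and 3967 at 16 h, against 3452, 3522 and 3454 at 0 min (0.18 ± 0.06, limma adjusted p = 0.022, lost in 5 of 16 alternatives), and was not called in total exons (0.10 ± 0.05). Each of the 3 has 1 or 2 RefSeq pseudogenes named after it that could take or give reads. Copies under other names were not counted for any gene here.

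The other beta ring genes have no active site. Psmb2 rose in labelled exons, with 1784, 1739.7 and 1758 at 16 h, against 1421, 1511 and 1499.6 at 0 min (0.25 ± 0.07, limma adjusted p = 0.00267), and by 0.15 ± 0.06 in total exons (lost in 5 of 16 alternatives). Psmb3 rose by 0.24 ± 0.07 in labelled exons (limma adjusted p = 0.0769 without replicate 2 of 0 min) and was not called in total exons (0.09 ± 0.06). Psmb4 fell in total exons, with 11468, 11949 and 12564 at 16 h, against 14927, 14104 and 14104 at 0 min (-0.26 ± 0.06, limma adjusted p = 0.000241), and was not called in labelled exons (-0.10 ± 0.07). Psmb1 had 2202, 1864 and 2301 in labelled exons at 16 h, against 2148, 2053 and 2250.4 at 0 min, and was the least changed of the class (-0.02 ± 0.08).

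Psmb10 (chromosome 8, 108459628 to 108462292), the trypsin-like subunit of the immunoproteasome that interferon induces, fell in both kinds of exon RNA. In total exons it had 1216, 1231 and 1216 at 16 h, against 1603, 1433 and 1564 at 0 min (-0.33 ± 0.07, limma adjusted p = 0.000114). In labelled exons it had 217, 222 and 213 at 16 h, against 264, 266 and 247 at 0 min (-0.25 ± 0.10, limma adjusted p = 0.0408), but there the call was lost in 7 of 16 alternatives. Introns did not move as one: labelled introns were higher at 1 h (0.68 ± 0.24) and not called at 16 h (0.22 ± 0.24), while total introns were lower at 16 h (-0.39 ± 0.16, limma adjusted p = 0.0468). They are low, at 86.6, 78.1 and 94.4 in total RNA at 16 h, against 118, 95.0 and 130.3 at 0 min.

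The 4 activators split. Psme1 and Psme2 encode the alpha and beta chains of PA28, which interferon also induces; Psme3 encodes PA28 gamma of the nucleus and Psme4 encodes PA200. Psme3 (chromosome 11, 101177527 to 101184851) rose early and stayed high. It had 2473, 2584 and 2866 in labelled exons at 16 h, against 2126, 1918 and 1933 at 0 min (0.41 ± 0.08, limma adjusted p = 3.62e-05). In total exons it had 12543, 11785 and 12407 at 16 h, against 9098, 8229.9 and 8678 at 0 min (0.50 ± 0.06, limma adjusted p = 1.91e-08). Psme1 (chromosome 14, 56196960 to 56200366) fell late in total exons, first called at 12 h. At 16 h it had 1418, 1383 and 1239, against 1869, 1749 and 1915 at 0 min (-0.45 ± 0.10, limma adjusted p = 0.000358), the largest fall among the 44 genes in total exons. Its labelled exons overlapped (251, 199 and 278 at 16 h, 261, 277 and 300.5 at 0 min, -0.21 ± 0.12).

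Psme2 was first higher and then lower in total exons. It had 3718, 3572 and 3906 at 1 h (0.16 ± 0.05, limma adjusted p = 0.0289) and 2898, 2965 and 3124 at 16 h (-0.15 ± 0.05, limma adjusted p = 0.00709), against 3257, 3391 and 3347 at 0 min. In labelled exons it had 596, 560.0 and 536 at 16 h, against 582, 624 and 642 at 0 min, and was not called (-0.13 ± 0.09). The call at 1 h was lost under scaling by library sums, under no further scaling, in a fit of 1 h and 0 min alone and without any 1 of 5 of the 6 libraries compared. Psme2 was also called higher in total exons at 2 h, with 3693, 3676 and 3792, all above 0 min, and not at 1.5 h. The alternative settings were not run at 2 h. Psme4 (chromosome 11, 30671726 to 30780361) was lower from 1.5 h to 12 h in labelled exons. At 4 h it had 2958, 2576 and 3115, against 3659.7, 3807 and 3633 at 0 min (-0.36 ± 0.07, limma adjusted p = 0.000154). At 16 h it had 3263, 3243 and 3439.7, all below 0 min but not called (-0.16 ± 0.07, limma adjusted p = 0.0792), and in total exons 13565, 13097 and 13632 at 16 h, against 15424, 13698 and 15206 at 0 min (-0.14 ± 0.07, not called, but with a limma adjusted p of 0.0400 without replicate 2 of 0 min). Introns of Psme4 were lower from 30 min on: labelled introns had 8051, 7102 and 8028 at 4 h, against 9411, 11149 and 9696 at 0 min (-0.38 ± 0.07, limma adjusted p = 3.43e-05).

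The inhibitor Psmf1 (PI31) was higher in labelled exons, with 759, 686 and 729 at 16 h, against 627, 641 and 613 at 0 min (0.21 ± 0.07, limma adjusted p = 0.0165, lost in 2 of 16 alternatives), and not called in total exons (0.10 ± 0.06).

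**Figure D5:**
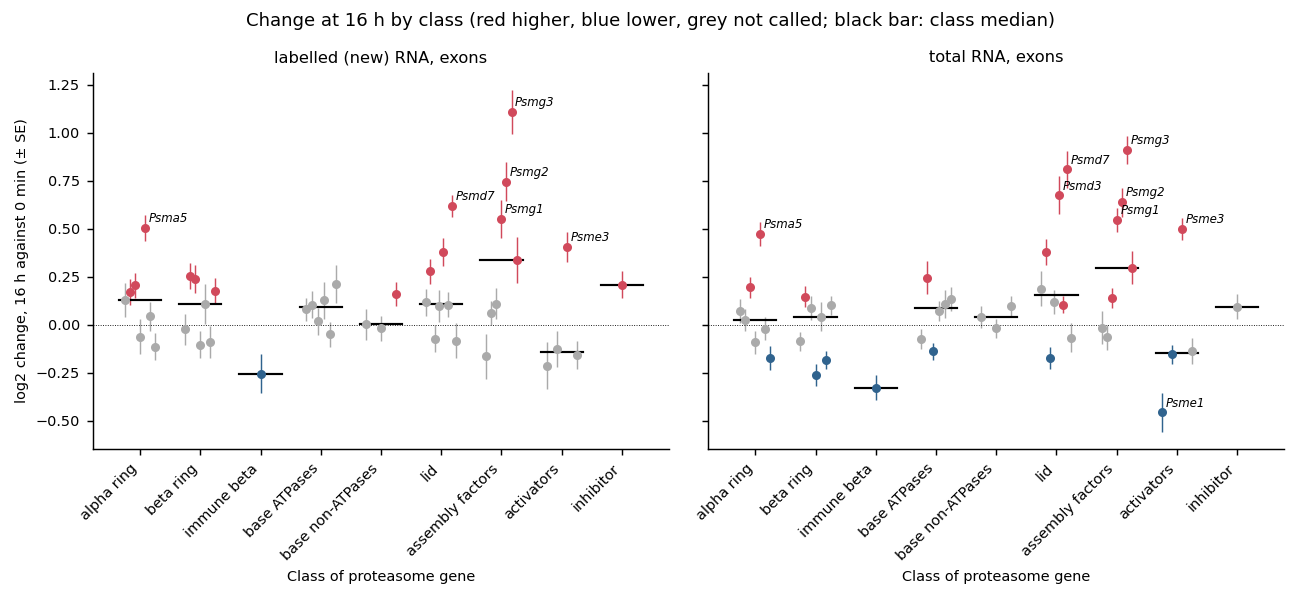
Log2 change at 16 h against 0 min (± SE, vertical axis) of each of the 44 proteasome genes by class (horizontal axis), in labelled exons (left) and total exons (right); red points were called higher, blue lower, grey not called, and black bars are class medians. The assembly factors have the highest median among classes with more than 1 gene, 0.34 in labelled and 0.30 in total exons, and the activators the lowest, -0.14 in each.

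Set side by side, the core, the regulatory particle and the activators each held genes called higher and genes not called at 16 h. In labelled exons at 16 h, 6 of 15 core genes were higher and 1 lower, 4 of 20 Psmc and Psmd genes were higher and 0 lower, and 1 of 4 activators was higher and 0 lower. Over all genes 22.1% and 22% were higher and lower. In total exons 3 core genes were higher and 4 lower, 6 Psmc and Psmd genes were higher and 2 lower, and 1 activator was higher and 2 lower, where all genes had 27.6% and 28.3%. The 20% of Psmc and Psmd genes higher in labelled exons, the 30% higher in total exons and the 26.7% of core genes lower in total exons are near these shares. The core had a median log2 change of 0.11 in labelled and 0.02 in total exons, the Psmc and Psmd genes 0.10 in each, and the activators -0.14 in each. Summed over the genes of a unit, the core held 2125 ± 45.1 RPKM of total exons at 16 h, against 2141 ± 85.6 RPKM at 0 min. The Psmc and Psmd genes held 1691 ± 47.3 RPKM at 16 h, against 1575 ± 21.5 RPKM at 0 min, and the activators 162 ± 2.71 RPKM at 16 h, against 156 ± 3.95 RPKM at 0 min (SD, n = 3). No p is given for these sums or for differences between units, which were not tested.

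Intron values had calls from 20 min on, in labelled and in total RNA. Labelled introns had 0 higher and 0 lower (0.469% and 0% of all genes) at 10 min, 13 higher and 3 lower (16.9% and 13.1% of all genes) at 20 min and 13 higher and 6 lower (22% and 20.1% of all genes) at 30 min, times at which labelled exons of the 44 genes had no call. They had 14 higher and 6 lower (25.1% and 24.1% of all genes) at 1 h. They had 13 higher and 7 lower (23% and 20.9% of all genes) at 1.5 h and 13 higher and 4 lower (22.7% and 21.3% of all genes) at 2 h. They had 15 higher and 2 lower (25.4% and 24.2% of all genes) at 4 h, 18 higher and 1 lower (26.9% and 25.8% of all genes) at 8 h. The counts were 18 higher and 2 lower (28.2% and 26.5% of all genes) at 12 h and 16 higher and 2 lower (24.7% and 23.2% of all genes) at 16 h. At 20 and 30 min the 13 higher genes were 29.5% of the 44, above the share of all genes, and the lower ones were under it. Scaling by library sums gave 10 higher and 8 lower at 1 h and 21 higher and 1 lower at 16 h. Introns of Psme3 had 1197, 1294 and 1383 at 20 min, against 796, 962 and 819 at 0 min (0.59 ± 0.08, limma adjusted p = 8.50e-07). Those of Psmg1 had 618, 597 and 607 at 20 min, against 466, 406 and 427 at 0 min (0.49 ± 0.08), and those of Psma5 6688, 6339.7 and 6824 at 20 min, against 4901, 5174 and 4834 at 0 min (0.41 ± 0.06). For each of these 3 genes the groups were already apart at 20 min. Introns of Psmd7 rose by 0.28 ± 0.08 at 20 min and 0.71 ± 0.08 at 4 h, and those of Psmg3 by 0.40 ± 0.12 and 0.87 ± 0.12.

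Of the 19 genes called higher at some time in both labelled introns and labelled exons, 18 were called first in introns and 1 at the same time in both. Of the 14 called higher at some time in both kinds of exon RNA, 9 were called first in labelled RNA, 4 at the same time and 1 first in total RNA. The tests of the tables differ in spread and level, so the order of first calls describes when a gene passed the threshold and was not itself tested. Intron and exon calls did not always go together. The ATPase genes Psmc1 and Psmc3 were first called lower in labelled introns at 30 min, each at 4 times in all, and were not called there at 16 h. Psmc1 had 1032, 1027 and 1046 at 30 min, against 1351, 1292 and 1313 at 0 min (-0.35 ± 0.07), and 1408, 1328 and 1289 at 16 h. Neither gene was called in labelled exons, and both were lower in total exons at 4 h. Introns of Psme2 were higher at 20 min (0.62 ± 0.20), from values of only 69.4, 92.8 and 109.7, against 66.3, 51.4 and 55.5 at 0 min. Total introns had 0 higher and 0 lower (0.122% and 0% of all genes) at 10 min, 5 higher and 2 lower (7.96% and 3.59% of all genes) at 20 min, 8 higher and 5 lower (15.8% and 11.3% of all genes) at 30 min. The counts were 9 higher and 3 lower (20.8% and 19.3% of all genes) at 1 h, 10 higher and 6 lower (20.4% and 17.1% of all genes) at 1.5 h and 11 higher and 3 lower (19.4% and 17.2% of all genes) at 2 h. They had 13 higher and 4 lower (20.9% and 18.8% of all genes) at 4 h, 13 higher and 2 lower (23.1% and 22.2% of all genes) at 8 h. The counts were 13 higher and 3 lower (23% and 21.8% of all genes) at 12 h and 13 higher and 3 lower (21% and 20.2% of all genes) at 16 h, with 9 higher and 5 lower at 1 h when scaled by library sums and 8 and 7 with no further scaling. At 16 h, 9 genes were higher in all 4 tables: Psma5, Psmb2, Psmd3, Psmd7, Psmd12, Psmg1, Psmg2, Psmg3 and Psme3.

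The change in labelled exons was set against that in total exons by an interaction over all 66 libraries. Of the 44 genes, 0 differed between the 2 kinds of RNA at 4 h, where 0.0436% of all genes had the labelled change above and 0.00872% below that in total RNA, and 0 at 16 h, against 0.148% in each direction. At an unadjusted p under 0.05 there were 2 genes at 4 h and 1 at 16 h. The smallest limma adjusted p was 0.652 at 4 h, for Psme4 (labelled minus total change -0.24 ± 0.10), and 0.489 at 16 h, for Psmd3 (-0.30 ± 0.12). A gene called in one kind of exon RNA and not in the other, such as Psme1 or Psmb4, was therefore not shown to differ between them.

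Further genes were called at single or few times. The ATPase gene Psmc5 (Rpt6) was lower in labelled exons at 1.5 h and 4 h, with 1471, 1322 and 1374 at 4 h, against 1597, 1474 and 1594 at 0 min (-0.16 ± 0.06, limma adjusted p = 0.0436), and at 16 h its change was -0.05 ± 0.06, not called. Psmd11 (Rpn6), a lid gene, was higher in labelled exons at 12 h (0.19 ± 0.07), and Psmd6 (Rpn7) likewise at 12 h (0.26 ± 0.07). Psmc4 (Rpt3) was higher in labelled introns at 8 h, by 0.31 ± 0.12, and was called in no exon table. Labelled introns of Psmd13 were lower from 20 min to 2 h, before its total exons were. At 1 h they had 1197, 1252 and 1186, against 1587, 1327 and 1496 at 0 min (-0.28 ± 0.07, limma adjusted p = 0.00108). Total introns of Psmd13 were instead called higher at 16 h, when its total exons were lower. They had 825, 729 and 796 at 16 h, against 636, 648 and 705 at 0 min. Introns of Psmb3 were higher from 20 min, by 0.40 ± 0.09, and its labelled exons from 8 h, by 0.20 ± 0.07.

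Upstream of 37 of the 44 genes, RefSeq promoters (build GRCm38.p6) were searched on both strands over the first 250 bases before the start, 40 windows in all. The E-box CACGTG, the sequence best known as a Myc and Max binding site, was in 4 of 40 windows (10%), against 1978 of 32851 windows (6.02%) over all RefSeq promoters (27025 genes). The median GC content was 57.4% in the 40 windows and 52.4% over all promoters, and the shares were not adjusted for it. The motif TGACNNNGC, which marks proteasome promoters bound by Nrf1 and Nrf2, was in 5 of 40 (12.5%), against 10.2%. The 4 windows with an E-box are printed below. At 16 h Psme3 rose, Psmb10 fell in total exons, and Psma4 was not called in exons. Psmd9 rose by 0.14 in total exons, a call lost in 5 of 16 alternatives. A link between the motif and these changes was not tested. The E-box is in capitals, and each window reads 5′ to 3′ on the strand of its gene, plus for Psme3, Psma4 and Psmd9 and minus for Psmb10. They lie at chr11:101315963-101316212 (Psme3), chr8:105938393-105938642 (Psmb10), chr5:123227940-123228189 (Psmd9) and chr9:54950609-54950858 (Psma4).
Psme3: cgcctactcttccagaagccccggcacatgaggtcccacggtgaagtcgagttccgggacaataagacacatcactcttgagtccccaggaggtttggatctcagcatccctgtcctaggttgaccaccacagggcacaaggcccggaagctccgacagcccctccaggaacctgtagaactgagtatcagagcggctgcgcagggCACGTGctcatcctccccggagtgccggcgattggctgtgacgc
Psmb10: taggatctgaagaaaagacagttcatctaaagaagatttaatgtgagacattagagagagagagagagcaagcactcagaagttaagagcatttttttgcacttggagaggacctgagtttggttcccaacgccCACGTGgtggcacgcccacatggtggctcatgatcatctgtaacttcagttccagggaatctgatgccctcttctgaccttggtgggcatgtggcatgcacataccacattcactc
Psmd9: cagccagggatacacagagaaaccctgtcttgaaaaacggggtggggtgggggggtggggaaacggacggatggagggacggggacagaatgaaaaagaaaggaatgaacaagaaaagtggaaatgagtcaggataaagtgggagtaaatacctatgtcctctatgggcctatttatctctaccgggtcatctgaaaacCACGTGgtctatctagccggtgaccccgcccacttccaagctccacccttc
Psma4: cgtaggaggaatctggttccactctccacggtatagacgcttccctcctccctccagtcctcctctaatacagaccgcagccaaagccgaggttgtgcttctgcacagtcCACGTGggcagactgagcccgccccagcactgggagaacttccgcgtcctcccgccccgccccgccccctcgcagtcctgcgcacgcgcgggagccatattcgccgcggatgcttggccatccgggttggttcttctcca

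The centre of the E-box lies 41 bases before the RefSeq start of Psme3, 113 before that of Psmb10, 48 before that of Psmd9 and 137 before that of Psma4. Among other genes that rose at 16 h in both kinds of exon RNA and had a window, Psmg3, Psmg1, Psmg4, Psma5 and Psma3 held neither CACGTG nor TGACNNNGC, and Psmd12 held TGACNNNGC. The window of Psmd9 held both motifs. Psmb2, Psmd3, Psmd7 and Psmg2 rose in both kinds of exon RNA too but had no window. These matches describe letters in a window; binding was not measured in the values used here.

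Partners of the proteasome were counted from a list of their own. Of the list of 31 partners (shuttle factors, ubiquitin-chain trimming enzymes, assembly and regulatory proteins), 28 were in the tables, and at 16 h 9 were higher and 5 lower in labelled exons and 12 higher and 7 lower in total exons. Over all genes 22.1% and 22% were higher and lower in labelled and 27.6% and 28.3% in total exons. The higher partners are thus above the share of all genes in both kinds of RNA, and the lower partners are at or under it. These differences in share were not tested. The median changes were 0.07 and 0.08, against 0.01 and 0.00 over all genes. Uchl5, a deubiquitinase bound to the 19S particle, averaged 3915 ± 418 in total exons at 16 h and 2064 ± 137 at 0 min (0.92 ± 0.08, limma adjusted p = 1.41e-10). AI314180, the mouse homologue of the adaptor ECM29, averaged 17902 ± 1411 at 16 h and 12183 ± 1327 at 0 min (0.56 ± 0.08). Nfe2l2, which encodes Nrf2, changed by 0.25 ± 0.07, and Akirin2, which helps bring proteasomes into the nucleus, by -0.35 ± 0.05, a fall.

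Psmb10, Psme1 and Psme2 belong to the genes that interferon induces, so a list of such genes was counted too. Of 13 interferon and antigen processing genes, 7 were in the tables, and at 16 h 0 were higher and 3 lower in labelled exons and 0 higher and 5 lower in total exons, with medians of -0.31 and -0.36. Over all genes 22% were lower in labelled and 28.3% in total exons. Irf1, a transcription factor of the interferon response, averaged 996 ± 31.3 in total exons at 16 h and 1953 ± 114 at 0 min (-0.97 ± 0.07, limma adjusted p = 1.97e-12). Tapbp, which loads peptides on MHC class I, changed by -0.79 ± 0.08, the MHC class I gene H2-K1 by -0.36 ± 0.09 and its regulator Nlrc5, from low values, by -0.99 ± 0.27. By plan the 4 genes named were those with the smallest p at 16 h in labelled exons, so they do not stand for the 7. The summed level of the 7 genes was 23.1 to 26.0 RPKM at 16 h, against 37.1 to 38.6 RPKM at 0 min, and its part in the values of Psmb10, Psme1 and Psme2 was not tested. Psmc3ip, the matched gene outside the proteasome, was called at no time in any of the 4 tables.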

How the data were processed

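RNA of 3T9-MycER fibroblasts at 11 times after OHT was analysed in 33 labelled and 33 total RNA libraries, grouped by the sample titles. The submitters' processing notes name TopHat2 2.0.8 and the genome build mm9. The authors deposited whole-number tables called counts and RPKM tables for exons and introns, per the file headers. The deposited counts are a rescaled score: in 13 of the 66 libraries some whole numbers are nearly missing. Within a table, dividing the deposited RPKM by them gives, for each gene, nearly the same ratio in all libraries. No count model was therefore used, read depth is unknown, and no counting interval is given.

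Libraries were then brought to one scale within each table by a trimmed mean of log ratios (30% of ratios and 5% of levels trimmed; factors 0.922 to 1.09). A gene was kept where 3 or more libraries reached a value of 10: 11488, 11486, 11506 and 11474 genes in labelled exons, total exons, labelled introns and total introns, all 45 matches among them. log2(scaled value + 1) was fitted with limma 3.58.1 in R 4.3.3, with 1 mean per time over 33 libraries and a variance trend, two-sided, with Benjamini-Hochberg adjustment over all genes; calls had an adjusted p under 0.05. The pseudocount understates changes of low genes. Simulated data with planted changes were fitted too, with a spread drawn independently for each library. Recovery was required there only of the larger planted changes in exons, and many changes given here are smaller. Printed values are scaled values; ± after a log2 change is its SE. The interaction used 1 mean per kind and time over 66 libraries. The labelled to total ratio used RPKM plus 0.1. Gene positions were read from GENCODE M1 (mm9).

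The members, gene lists and tests were chosen with earlier results of these data known. Per-library values follow a rule: in each class the genes with the largest and smallest change at 16 h in labelled exons, and the catalytic, immune and activator genes. Psma3, Psmb4, Psmc5, Psmd3, Psmd10, Psmg1 and Psmg2 were added after their values were seen, as was the choice of genes for introns and promoters. In the main tests replicate numbers were not taken to pair the libraries. The correlation of same-numbered deviations ran from -0.25 to 0.25. All 3 pairs were over 0.1 in total exons at 4 h alone, among 10 times in each of 4 tables. The labelled to total ratio at 0 min did set libraries of the same number against each other, so its SD rests on that pairing. Scaling, pseudocount, filter, trend, replicate block, 2 times alone and leaving out each library were tried as alternatives, 16 for each member at 16 h.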

Additional observations from a re-analysis of the deposited data

Results flagged for a closer look

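A gene was looked at again where it was called in opposite directions at 2 times of the same table and the contrast of those times also passed. Psmd4, the ubiquitin receptor of the base, was lower at 1.5 h and higher at 16 h in labelled exons. It had 2170.0, 1952 and 2140.3 at 16 h and 1774, 1639 and 1533 at 1.5 h, against 1872, 1810.5 and 1912 at 0 min. On the log2 scale 16 h minus 1.5 h was 0.34 ± 0.06 (limma adjusted p = 6.02e-05). Its 16 h call was lost in 6 of 16 alternatives. Replicates 2 and 3 of 1.5 h had the largest median absolute deviations from their time mean among labelled exon libraries, 0.0996 and 0.112. Psme2, the beta chain of PA28, was higher at 1 h and lower at 16 h in total exons, and 16 h minus 1 h was -0.32 ± 0.05 (limma adjusted p = 2.20e-06). The call of Psme2 at 1 h was lost in most alternative settings, as given above with that gene. Introns of labelled RNA held both other cases. Psma1 had 1734, 1709.7 and 1612 at 16 h and 1178, 1183 and 1256 at 20 min, against 1429, 1602 and 1371 at 0 min, a difference of 0.48 ± 0.07 between the times (limma adjusted p = 7.16e-07). Psma7 went the other way, with 1038, 961 and 887 at 16 h and 1275, 1314 and 1326 at 20 min, against 1182, 1009 and 1104 at 0 min, a difference of -0.44 ± 0.08 (limma adjusted p = 2.79e-05). The pairs of times were picked from the calls, so these p-values do not stand as independent tests.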

How the results depend on the processing

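At 16 h, 9 of the 17 calls among the 44 genes in labelled exons (Psma5, Psmb2, Psmd3, Psmd7, Psmd12, Psmg1, Psmg2, Psmg3 and Psme3) and 16 of 22 in total exons held in all 16 alternatives; 8 and 6 were lost in some, and 2 and 6 further genes gained a call in some, with no reversal. Scaling by library sums gave these counts: labelled exons at 1 h 2 higher and 1 lower, at 16 h 0 lower; total exons at 1 h 0 higher, at 4 h 10 lower; labelled introns at 16 h 1 lower; total introns at 1 h 5 lower. It also moved the median of all genes in labelled introns at 16 h to 0.13, against 0.02. With no further scaling, labelled exons had 1 higher at 1 h and 7 lower at 4 h, total exons 0 higher at 1 h, labelled introns 1 lower at 4 h and at 16 h, and total introns 7, 2 and 1 lower at 1 h, 4 h and 16 h. Median of ratios scaling left 1 lower in labelled introns at 16 h. Fitted alone, the 2 times compared gave 2 lower at 4 h and 0 lower at 16 h in labelled exons, 0 higher at 1 h and 3 lower at 4 h in total exons, 1 lower at 16 h in labelled introns and 1 lower at 4 h in total introns. The replicate block gave 1 lower at 1 h and 2 lower at 16 h in labelled exons and changed no other count by over 1.5 times. In total exons at 4 h, where same-numbered libraries correlated at 0.178, 0.186 and 0.123, it gave 7 higher and 9 lower, against 6 and 6. With the block Psme4 was called lower at 16 h (limma adjusted p = 0.0460 in labelled and 0.0121 in total exons). Each later library was compared with the 3 libraries of 0 min. It correlated best with its own number in 12, 20, 14 and 17 of 30 cases in labelled exons, total exons, labelled introns and total introns. Unrelated numbers would give about 1 in 3, so same-numbered libraries of total RNA may share some structure. Without 1 library each, labelled exons had, in the order 1 h, 4 h and 16 h, 0 to 3, 7 to 9 and 11 to 15 higher and 0, 2 to 6 and 0 to 1 lower. Total exons had 0 to 1, 5 to 7 and 10 to 15 higher and 0, 3 to 8 and 6 to 9 lower. Labelled introns had 11 to 15, 14 to 19 and 13 to 18 higher and 4 to 6, 1 to 2 and 1 to 2 lower, and total introns had 8 to 11, 11 to 12 and 8 to 13 higher and 2 to 3, 1 to 4 and 2 to 3 lower. The count of genes with unequal labelled and total change stayed at 0 under the settings run. The cause of these shifts was not tested, and neither pseudocounts, RPKM input, the filter nor the variance trend moved a count by over 1.5 times.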
